A study of Mus musculus with 20 samples.

Results

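*Tafa4* and *Nxph1* were followed through 20 RNA-seq libraries of mouse NPCs, nephron progenitor cells of the embryonic kidney that express *Six2* and give rise to nephrons. They are 2 of the 31130 genes of the deposited table of normalized counts, and were found there by the identifiers (ENSMUSG00000046500 for *Tafa4*, ENSMUSG00000046178 for *Nxph1*) that the authors' tables of comparisons pair with these symbols. Both genes were thereby chosen by measured values, since both symbols stand in the table of CTRL in low against high CHIR and *Tafa4* also in that of CTRL against α-catenin KO in high CHIR. Differences between low and high CHIR in CTRL, and between CTRL and each knockout, are therefore given below as descriptions with no test, and so is every comparison of *Tafa4* that uses α-catenin KO in high CHIR. Tests are given for the other comparisons. For CTRL against α-catenin KO in high CHIR, the paper names *Ctnna1* alone as differentially expressed, so it does not report *Tafa4* as such.

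The NPCs came from embryonic day 16.5 kidneys of crosses between SWR/J mice and a line with Cas9 and EGFP under the ubiquitous CAG promoter at Rosa26. All groups thus started with Cas9 and EGFP. Cells were lipofected with guide RNAs and mCherry mRNA, kept for 48 h, cultured for a further 24 h with CHIR at 1.25 µM (low) or 5 µM (high), and sorted for mCherry. CHIR blocks GSK3β, which otherwise sends β-catenin to degradation, so the high dose acts like a strong Wnt signal and induces the cells. CTRL received a guide against GFP, so EGFP was targeted in CTRL and not in the knockouts. α-catenin KO received guides against *Ctnna1*, β-catenin KO guides against *Ctnnb1*, and QCKO guides against the cadherin genes *Cdh2*, *Cdh3*, *Cdh4* and *Cdh11*. Low and high CHIR had 3 libraries each of CTRL and of β-catenin KO, and 2 each of α-catenin KO and of QCKO. The replicate number stands for a date in the sample titles that groups share (dates 1 and 3 for α-catenin KO, dates 2 and 3 for QCKO). Every group is a transfected pool of primary cells with mixed edits and no clone. α-catenin KO and QCKO are together called the adhesion knockouts here.

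TAFA4 is a small secreted protein of the chemokine-like TAFA family, known from sensory neurons of the dorsal root ganglion. Nxph1 encodes neurexophilin 1, a secreted glycoprotein that binds α-neurexins, presynaptic adhesion receptors. TAFA proteins are also known to bind neurexins, so both genes encode ligands of one receptor family that is best known from synapses. NPCs are mesenchymal cells that keep *Six2* high while they self-renew, and turn it down while *Wnt4* and *Lef1* rise when Wnt signalling through β-catenin induces them.

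On GRCm38.p6, *Nxph1* lies at chr6:8948614-9249619 and *Tafa4* at chr6:96831206-97060411, both protein-coding. *Tafa1*, another member of the TAFA family, lies at chr6:96113154-96657204, and the 174002 bases between it and *Tafa4* hold 0 other RefSeq genes. The RefSeq promoter windows of these 3 genes, from 250 bases before the transcription start to 30 bases after it, are shown because the genes fell together with a stimulus that acts through LEF and TCF factors. Capitals mark CTTTG or its reverse complement CAAAG, the core letters of the LEF/TCF motif, searched on both strands. Each sequence reads 5′ to 3′ along the gene. The start that the RefSeq window of *Nxph1* is set on lies inside the gene interval above and not at its first base, and positions in that window count from it.

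*Nxph1*, chr6:8949769-8950048, plus strand: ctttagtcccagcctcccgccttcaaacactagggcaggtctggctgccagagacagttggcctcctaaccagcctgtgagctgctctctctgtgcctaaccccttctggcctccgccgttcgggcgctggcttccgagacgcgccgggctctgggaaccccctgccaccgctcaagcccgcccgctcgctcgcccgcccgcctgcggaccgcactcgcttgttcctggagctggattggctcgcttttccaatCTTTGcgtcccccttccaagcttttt

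*Tafa1*, chr6:96112904-96113183, plus strand: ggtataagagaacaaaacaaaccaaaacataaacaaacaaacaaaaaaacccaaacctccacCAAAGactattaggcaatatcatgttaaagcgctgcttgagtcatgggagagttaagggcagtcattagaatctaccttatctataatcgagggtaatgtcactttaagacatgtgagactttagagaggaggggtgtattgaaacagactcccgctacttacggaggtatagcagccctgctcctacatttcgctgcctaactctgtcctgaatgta

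*Tafa4*, chr6:97060382-97060661, minus strand: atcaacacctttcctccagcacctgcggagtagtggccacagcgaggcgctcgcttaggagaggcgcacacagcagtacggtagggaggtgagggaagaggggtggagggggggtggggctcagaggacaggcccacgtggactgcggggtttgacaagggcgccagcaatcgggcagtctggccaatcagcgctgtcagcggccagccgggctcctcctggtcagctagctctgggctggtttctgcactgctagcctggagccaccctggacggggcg

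The *Nxph1* window held 1 match, which began at base 5 of the transcript, and the *Tafa1* window held 1, which began at position -188. The *Tafa4* window held 0 matches. Of 32851 RefSeq promoter windows of the same length, 51.9% held a match, so its presence or absence is common. The *Tafa4* and *Nxph1* windows were rich in CpG, with 15 and 21 CpG sites and a GC content of 66.1% and 64.6%, and the *Tafa1* window had 5 CpG sites and 41.1% GC. Over all windows the medians were 6 CpG sites and 52.5% GC.

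The libraries held 18124772 to 28472412 recovered reads (median 21449823), and values are normalized counts, that is reads divided by 1 size factor per library. Of 9 NPC markers, 7 have an identifier, and their summed level was 15619 to 21896 in CTRL in low CHIR and 1478 to 2262 in high CHIR. *Ctnna1* was at 40.4% of the CTRL mean in α-catenin KO in low CHIR and at 47.4% in high CHIR, and in QCKO *Cdh11* was at 50.0% and 40.2% and *Cdh2* at 63.5% and 77.0%. The other QCKO targets were not lower at the mRNA level in both conditions, with *Cdh3* at 126.8% and 103.8% and *Cdh4* at 95.2% and 104.8%. *Ctnnb1* has no identifier here, so its own level was not analysed. The β-catenin KO libraries were not alike. *Wnt4* in low CHIR was at 30.1 on date 1 but at 830.6 and 634.2 on dates 2 and 3, against 41.1 to 72.6 in CTRL, and *Lef1* was at 62.3, 659.7 and 532.5, against 62.5 to 72.6. The low CHIR libraries of β-catenin KO on dates 2 and 3 thus held more of both induction markers than any CTRL library in low CHIR. In high CHIR, *Wnt4* in β-catenin KO was at 251.9, 2387 and 1200 on dates 1 to 3, against 4156 to 5401 in CTRL, and *Lef1* at 93.6, 677.2 and 1020, against 948.5 to 1465. The NPC marker sum in β-catenin KO was 13833 to 24209 in low and 7581 to 15272 in high CHIR. Since date 1 had the lowest *Wnt4* and *Lef1* of this knockout, the differences of *Tafa4* and *Nxph1* between this knockout and the adhesion knockouts are also given with β-catenin KO of date 1 alone, an arm of 1 library per condition that is assumed to vary like the other groups. Those values set date 1 against adhesion knockouts mostly of other dates (QCKO has none of date 1), so date and knockout cannot be told apart in them, and same-date differences are given beside those in low CHIR and those of *Nxph1*, which was highest on date 1 in low CHIR in CTRL and α-catenin KO too.

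*Tafa4* was a gene of uninduced CTRL cells. In low CHIR, its normalized counts in CTRL were 67.8, 57.4 and 60.3 on dates 1 to 3, and in high CHIR they were 1.13, 2.14 and 3.92, from 1, 2 and 5 reads. The groups did not overlap, and pooled over libraries the low CHIR level was 24.1 times the high one (95% exact interval 12.0 to 56.6, counting error only, as for all such intervals below). In this contrast, which chose both genes, 6.45% of all genes were called lower. The fitted log2 difference, high minus low CHIR, was -4.29 (SE 0.44) on the scale of log2(normalized count + 1), which understates changes towards 0.

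*Nxph1* also had few reads in high CHIR in CTRL, and varied far more between dates in low CHIR. Its counts in low CHIR were 452.5, 50.9 and 99.5, with date 1 far above the other dates, and in high CHIR they were 0, 1.07 and 0.784, from 2 reads in all. Again the groups did not overlap, and the fitted difference was -6.43 (SE 1.29). The pooled SD between replicates, with the date ignored, was 1.81 on the log2 scale for *Nxph1* and 0.53 for *Tafa4*. In fits without the date, the same size of change therefore carries less weight for *Nxph1*. In bulk libraries, fewer cells with the transcript and less transcript per cell cannot be told apart.

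**Figure D1:**
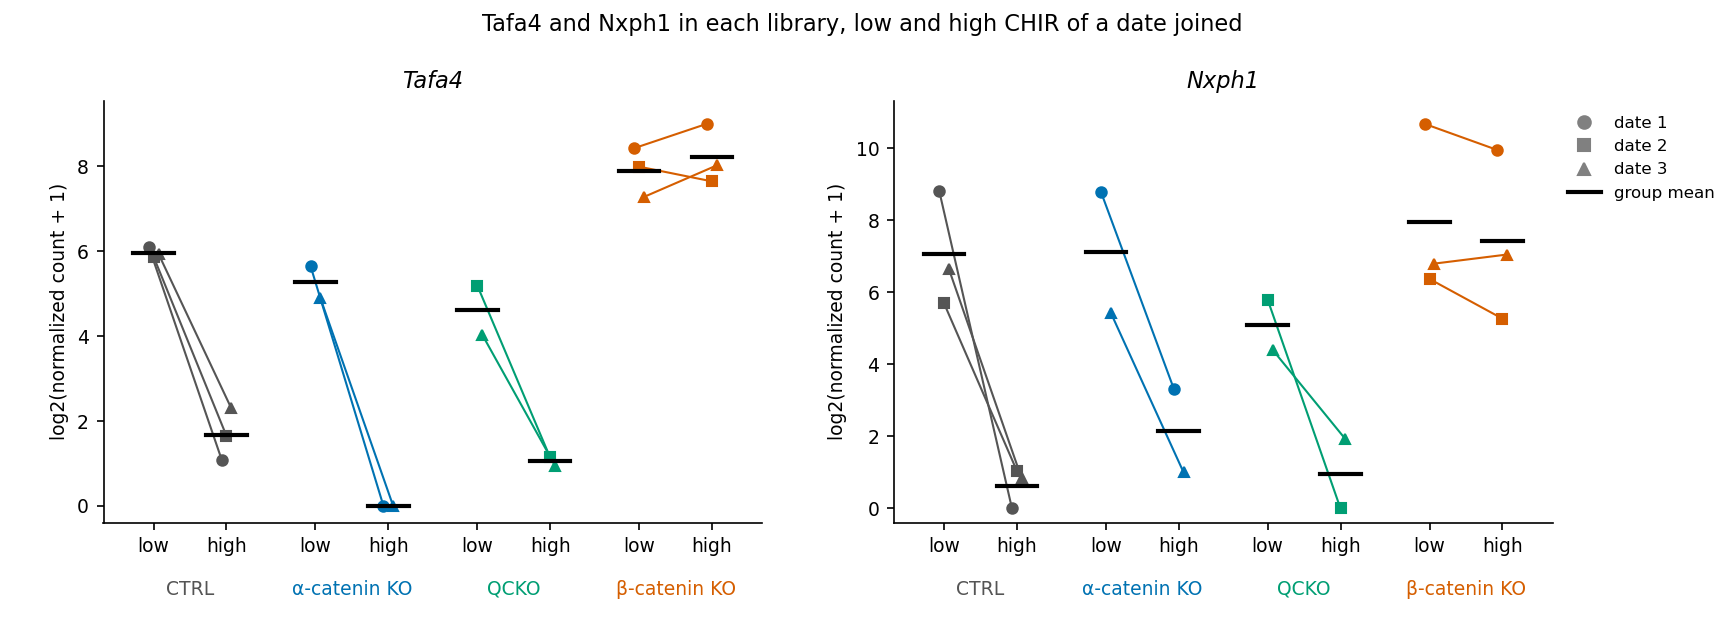
Normalized counts of *Tafa4* (left) and *Nxph1* (right) on the log2(normalized count + 1) scale in each of the 20 libraries, by knockout and CHIR condition. Symbols give the date, lines join the low and high CHIR library of a date, and black bars are group means. In CTRL, α-catenin KO and QCKO every line falls steeply, while in β-catenin KO the lines stay above 7 for *Tafa4* and above 5 for *Nxph1*.

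The adhesion knockouts addressed the response to CHIR in cells targeted at α-catenin or at the cadherins. *Tafa4* fell in QCKO, and *Nxph1* fell over both knockouts together but passed the test in neither alone. In QCKO, *Tafa4* counted 35.6 and 15.4 in low CHIR, against 1.21 and 0.94 in high CHIR, from 1 read in each high CHIR library. Both low CHIR libraries lay above both high CHIR libraries, and the log2 difference was -3.57 (SE 0.54, adjusted p = 0.00091, limma over all 16691 genes tested), a call that 2.13% of all genes received in this direction (660 genes or 3.95% in both directions, and 1256 with the date as a block). Pooled, low CHIR stood 24.7-fold above high CHIR (6.53 to 208.8). In α-catenin KO, *Tafa4* counted 49.0 and 28.9 in low CHIR and had 0 reads in both high CHIR libraries. Low CHIR was thus at least 22.9-fold higher, taking 3 reads over both high CHIR libraries together as the limit of detection, and the fitted difference of -5.27 has no test.

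*Nxph1* showed the same direction in every adhesion knockout library pair. In α-catenin KO it counted 441.3 and 42.4 in low CHIR (dates 1 and 3), against 9.02 and 1.01 in high CHIR, and within each date high CHIR was at 0.0204 and 0.0238 of low CHIR. In QCKO it counted 54.7 and 20.2 in low CHIR (dates 2 and 3), against 0 and 2.81 in high CHIR. The log2 difference was -4.95 (SE 1.58, adjusted p = 0.12) in α-catenin KO and -4.14 (SE 1.58, adjusted p = 0.21) in QCKO by limma, so neither passed on its own, in comparisons that called 1.82% and 2.13% of genes lower. With the date as a block, adjusted p was 0.0079 and 0.022, and 1150 in place of 559 genes (3.35%) were called in α-catenin KO.

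Over both adhesion knockouts together the fall of *Nxph1* was -4.54 (SE 1.12, adjusted p = 0.014, limma), where 5.60% of all genes were called lower and 10.7% in either direction. The 4 low CHIR libraries did not overlap the 4 high CHIR libraries, and high CHIR was lower in each of the 4 date pairs. The limma call was lost without α-catenin KO low replicate 1 (adjusted p = 0.084), α-catenin KO high replicate 3 (0.067), QCKO low replicate 2 (0.063) or QCKO high replicate 2 (0.066). The matching *Tafa4* difference was -4.42 (SE 0.38), with no test.

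Within low CHIR, *Tafa4* was lower in the adhesion knockouts than in CTRL of the same date in 4 of 4 pairs, of which both date 3 pairs share 1 CTRL library. α-catenin KO was at 0.723 and 0.478 of CTRL on dates 1 and 3, and QCKO at 0.620 and 0.256 on dates 2 and 3. The highest adhesion knockout library (49.0) lay below the lowest CTRL library (57.4). *Nxph1* did not follow this on every date, at 0.975 of CTRL in α-catenin KO on date 1 and 1.07 in QCKO on date 2, but at 0.426 and 0.203 on date 3. CTRL in low CHIR is an arm of the contrast that chose both genes, so these differences have no test. For *Tafa4* the fitted log2 differences from CTRL were -0.70 in α-catenin KO and -1.36 in QCKO (SE 0.49 each). By size they ranked 782 and 164 of 16691 genes. The authors' comparisons of these knockouts with CTRL in low CHIR do not list *Tafa4*. How many other genes were lower in every pair was not counted.

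β-catenin KO was the exception, and both genes stayed high in high CHIR. *Tafa4* counted 343.9, 253.9 and 154.5 in low CHIR, against 512.9, 199.5 and 259.3 in high CHIR. The groups overlapped, and between paired libraries of a date high CHIR was at 1.49, 0.786 and 1.68 of low CHIR. The log2 difference was 0.32 (SE 0.44, adjusted p = 1.00, limma), and 0.0180% of all genes, or 3 genes, were called in this comparison (40 with the date as a block). The exact two-sided permutation p, which here and below takes libraries as unpaired although dates are shared, was 0.60, where 3 against 3 libraries cannot go below 0.10.

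*Nxph1* in β-catenin KO counted 1641, 82.0 and 110.5 in low CHIR, against 991.2, 37.7 and 131.8 in high CHIR. Date 1 again held the highest library of each condition by a wide margin. High CHIR was at 0.604, 0.460 and 1.19 of low CHIR within dates, and the log2 difference was -0.52 (SE 1.29, adjusted p = 1.00, limma; exact permutation p = 0.70). Its direction turned without β-catenin KO low replicate 1 (0.84) and without high replicate 2 (0.55), and that of *Tafa4* turned without high replicate 1 (-0.066), so neither difference has a settled sign.

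In high CHIR both genes stood far apart between β-catenin KO and the other groups. *Tafa4* stood 7.70 above the adhesion knockouts on the log2 scale (SE 0.41, no test), a size that depends on the pseudocount because the adhesion knockout libraries held 0 to 1 reads. Against QCKO alone, a comparison added after the values were seen because it uses no α-catenin KO library, the difference was 7.18 (SE 0.49, adjusted p = 8.9e-07, limma), where 2.40% of all genes were called higher and 3.12% in either direction. It kept its call under all 32 alternatives run, with adjusted p between 1.3e-10 and 0.0073. The 3 β-catenin KO libraries lay above both QCKO libraries (exact permutation p = 0.10, the smallest that 3 against 2 allow). Pooled over libraries, *Tafa4* was 299.8 times higher (82.8 to 2479, from 923 against 2 reads), and against α-catenin KO, with the same limit of detection, at least 186.2-fold higher. With β-catenin KO of date 1 alone, the log2 difference was 8.48 from the adhesion knockouts and 7.96 from QCKO.

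*Nxph1* in high CHIR stood 5.86 above the adhesion knockouts (SE 1.21, adjusted p = 0.0082, limma), rank 8 of 16691, where 4.06% of all genes were called higher (962 genes or 5.76% in both directions, and 1798 with the date as a block). The lowest β-catenin KO library (37.7) lay above the highest of the 4 adhesion knockout libraries (9.02), with an exact permutation p of 0.0286, the smallest possible for 3 against 4. Of the 1044 reads of *Nxph1* in β-catenin KO in high CHIR, 858 came from date 1, so no pooled ratio is given. Without any library of date 1 the difference was 5.18 and kept its call (adjusted p = 0.0022), and with β-catenin KO of date 1 alone it was 8.39 (6.63 against α-catenin KO of date 1), but without β-catenin KO high replicate 1 alone it was 4.60 and lost it (adjusted p = 0.059). Against QCKO alone it was 6.46 (SE 1.45, adjusted p = 0.022), or 8.99 with β-catenin KO of date 1 alone (5.27 and 5.13 within dates 2 and 3), and this call was lost without β-catenin KO high replicate 1 (0.091) or 3 (0.0501) or QCKO high replicate 2 (0.24) or 3 (0.089), and by edgeR (0.081).

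Already in low CHIR, *Tafa4* was higher in β-catenin KO than in any other group. The lowest β-catenin KO library (154.5) lay above the highest CTRL library (67.8), and within dates β-catenin KO was at 5.07, 4.42 and 2.56 times CTRL. Against the adhesion knockouts the log2 difference was 2.96 (SE 0.41, adjusted p = 0.015, limma; exact permutation p = 0.0286, the smallest possible), in a comparison in which 0.144% of all genes, or 24 genes, were called, each of them higher (157 with the date as a block). This call was lost without β-catenin KO low replicate 2 (adjusted p = 0.099), α-catenin KO low replicate 3 (0.086) or QCKO low replicate 3 (0.063), when 1, 3 and 2 genes were called in all. It was also lost with only the groups compared in the fit (0.19), where 0 genes were called. With β-catenin KO of date 1 alone, the library with low *Wnt4* and *Lef1*, the difference was 3.49, and against α-catenin KO of the same date it was 2.79.

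*Nxph1* in low CHIR was at 3.63, 1.61 and 1.11 times CTRL within dates, and its β-catenin KO libraries overlapped those of CTRL and of the adhesion knockouts. Against the latter the difference was 1.84 (SE 1.21, adjusted p = 0.63, limma; exact permutation p = 0.31), and it moved to 4.57 with β-catenin KO of date 1 alone (1.89 against α-catenin KO of date 1) and to 0.48 without β-catenin KO low replicate 1. The other same-date differences were also above 0, at 0.58 against QCKO on date 2 and at 1.36 and 2.39 against α-catenin KO and QCKO on date 3. Both date 3 values share 1 β-catenin KO library. Without β-catenin KO low replicate 1 the difference from CTRL turned from 0.89 to -0.47, in a fit that kept the high CTRL library of date 1. Within dates 1 to 3 the log2 difference from CTRL was 1.86, 0.68 and 0.15, so it turned on no date.

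The response to CHIR itself was then compared between knockouts. For *Tafa4*, the response in β-catenin KO exceeded that in QCKO by 3.89 (SE 0.70, adjusted p = 0.019, limma, interaction term, added after the values were seen), where 0.294% of all genes were called in this direction (65 genes or 0.389% in both directions, and 252 with the date as a block). This call was lost without β-catenin KO low replicate 2 (adjusted p = 0.052) or 3 (0.056), QCKO low replicate 2 (0.14), or QCKO high replicate 2 (0.071) or 3 (0.11), and with β-catenin KO of date 1 alone (0.092), where the difference was 4.14. For *Nxph1* the response in β-catenin KO exceeded that in QCKO by 3.61 (SE 2.05, adjusted p = 0.90) and that in both adhesion knockouts by 4.02 (SE 1.71, adjusted p = 0.47, or 0.073 with the date as a block), and neither passed. Against both adhesion knockouts 1.01% of genes were called, 0.677% in this direction. The corresponding *Tafa4* value against both adhesion knockouts was 4.74 (SE 0.58), with no test.

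**Figure D2:**
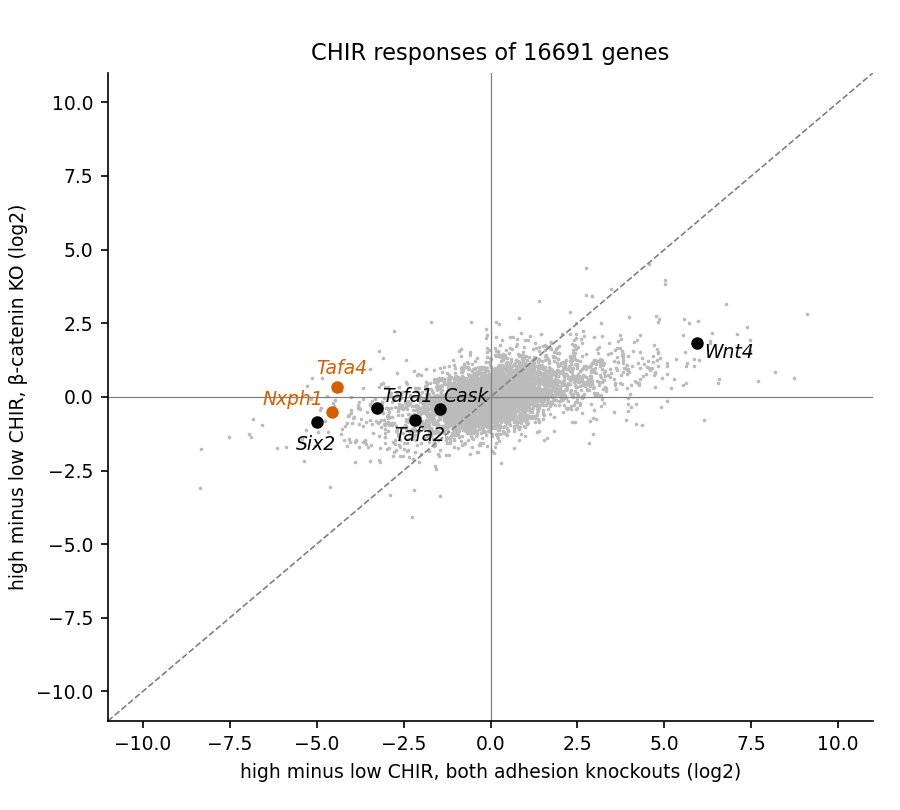
Log2 difference between high and low CHIR in the adhesion knockouts (horizontal) and in β-catenin KO (vertical) for 16691 genes, each a grey point, with named genes marked and a dashed line where both responses are equal. *Tafa4* (-4.42, 0.32) and *Nxph1* (-4.54, -0.52) lie far to the left and near 0 on the vertical axis.

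By mean log2 level, *Tafa4* ran in the order β-catenin KO high, β-catenin KO low, CTRL low, α-catenin KO low and QCKO low, followed by CTRL, QCKO and α-catenin KO in high CHIR, whose 0 to 5 reads per library give them no order. Neighbours overlapped between β-catenin KO high and low and between α-catenin KO low and QCKO low. For *Nxph1* the order was β-catenin KO low, β-catenin KO high, α-catenin KO low, CTRL low and QCKO low, each of which overlapped the next, followed without overlap by α-catenin KO, QCKO and CTRL in high CHIR, again with too few reads (0 to 7 per library) for an order. For both genes, the 3 high CHIR groups not targeted at *Ctnnb1* lay below every library of the other 5 groups.

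The other neurexin ligands, their families and receptors were taken from a list of 32 genes. Besides *Tafa4* and *Nxph1*, 6 have an identifier, which a gene has here only where an authors' comparison picked it. *Tafa1*, *Tafa2*, *Cask*, *Adgrl1* and *Adgrl2* were picked in CTRL, low against high CHIR, and *Cbln4* was below the level needed for testing. In the adhesion knockouts all 5 tested genes fell between low and high CHIR (median log2 difference -1.46, against 0.00027 over all genes), where 5.60% of genes were called lower. Since these 5 genes were picked for a difference between the CHIR conditions in CTRL, neither the count nor the median is independent of that choice. In β-catenin KO 0 of the 5 were called (median -0.42), where 741 genes had an unadjusted p under the 0.05 threshold and edgeR and DESeq2 called 3 and 51 genes in all. In high CHIR the difference between β-catenin KO and the adhesion knockouts was above 0 for all 5 (median 0.55, against 0.0027 over all genes). Of the 5, 2 were called higher, where 4.06% of all genes were. The choice by the CHIR difference in CTRL bears on these values too, so they are no independent result about the list.

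*Tafa1*, the chromosomal neighbour of *Tafa4* and a secreted protein of the same family, came closest to it. In CTRL it counted 214.2, 73.7 and 163.0 in low CHIR, against 14.7, 20.3 and 8.62 in high CHIR, and in β-catenin KO 322.4, 218.9 and 208.2 in low and 187.2, 129.7 and 281.9 in high CHIR. The high CHIR libraries of β-catenin KO lay above the 4 of the adhesion knockouts, which held 10.9 to 19.6. The fall in the adhesion knockouts was -3.25 (SE 0.36, adjusted p = 2.0e-05), the excess of β-catenin KO over them in high CHIR was 3.58 (SE 0.39, adjusted p = 5.2e-05), and the difference between the responses was 2.89 (SE 0.56, adjusted p = 0.018), all by limma. In low CHIR the excess over the adhesion knockouts was 0.69 (SE 0.39, adjusted p = 0.57), against 2.96 for *Tafa4*.

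*Tafa2*, the TAFA gene on chromosome 10, followed the fall but not the excess. It fell by 2.17 on the log2 scale in the adhesion knockouts (SE 0.31, adjusted p = 0.00017), from 230.0 to 377.7 in low CHIR to 53.4 to 83.2 in high CHIR. In β-catenin KO it counted 251.5, 128.9 and 156.9 in low CHIR, against 181.4, 56.5 and 93.7 in high CHIR, lower on each date, with a difference of -0.79 (SE 0.35, adjusted p = 1.00). Its excess over the adhesion knockouts in high CHIR was 0.53 (SE 0.33, adjusted p = 0.43).

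*Cask* encodes a scaffold protein that binds the cytoplasmic tail of neurexins. Its fall in the adhesion knockouts was -1.46 (SE 0.19, adjusted p = 8.5e-05) and its excess in β-catenin KO in high CHIR 1.23 (SE 0.21, adjusted p = 0.0020). *Adgrl1* and *Adgrl2* encode latrophilins, adhesion receptors of which latrophilin 1 binds neurexins. They fell by 0.71 (SE 0.16, adjusted p = 0.0070) and 1.14 (SE 0.21, adjusted p = 0.0021) on the log2 scale in the adhesion knockouts, and their excess in β-catenin KO in high CHIR was 0.22 (SE 0.17, adjusted p = 0.56) and 0.55 (SE 0.23, adjusted p = 0.20).

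**Figure D3:**
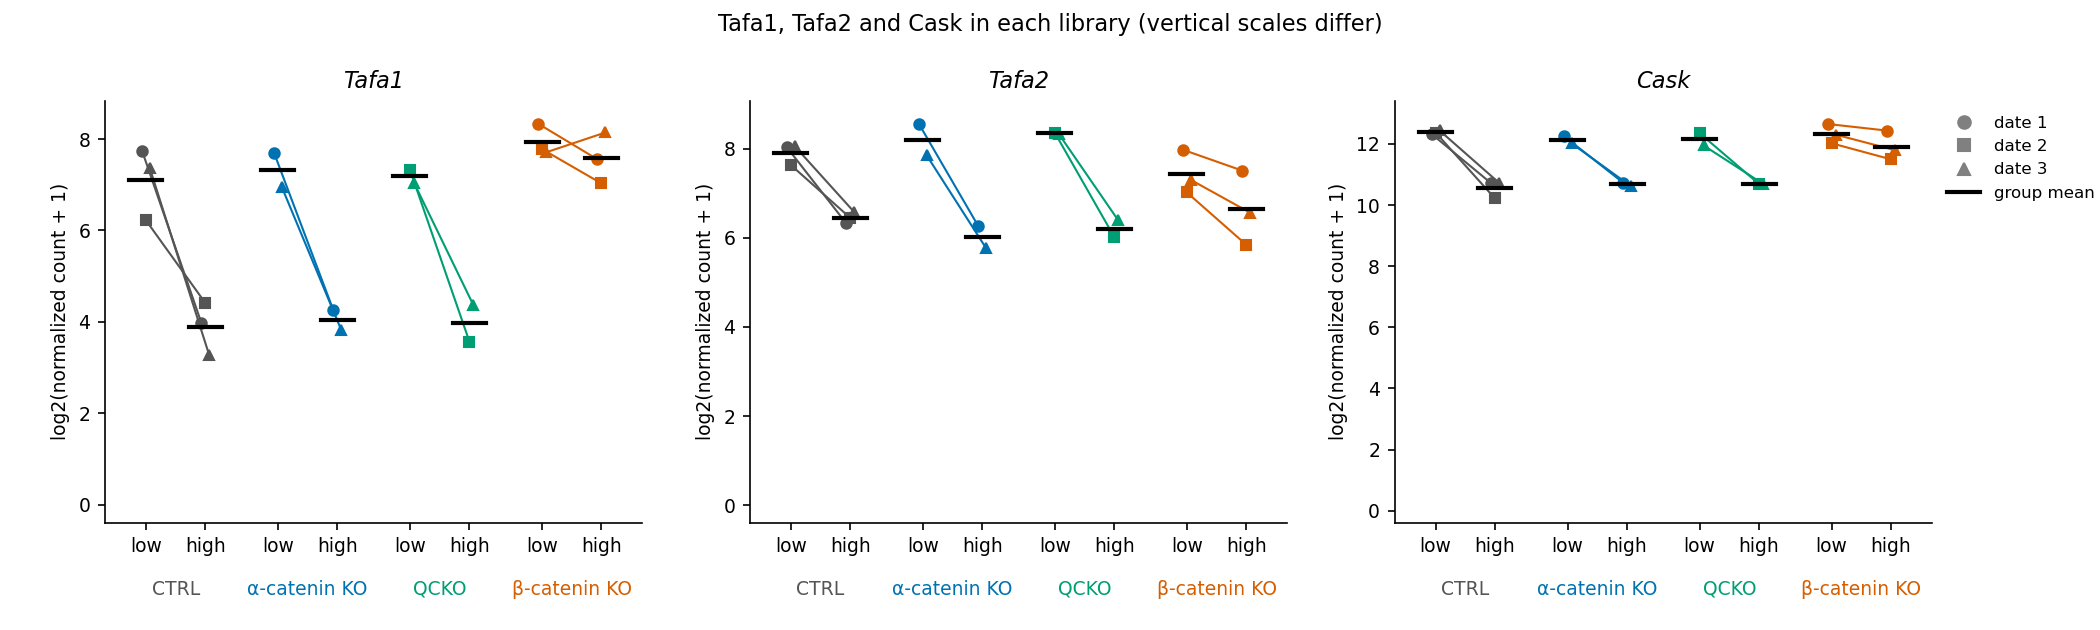
Normalized counts of *Tafa1*, *Tafa2* and *Cask* on the log2(normalized count + 1) scale in each of the 20 libraries, with symbols for dates, lines joining the low and high CHIR library of a date, and bars for group means. All 3 fall from low to high CHIR in CTRL and the adhesion knockouts, and the fitted response in β-catenin KO is -0.37 for *Tafa1*, -0.79 for *Tafa2* and -0.42 for *Cask*.

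**Figure D4:**
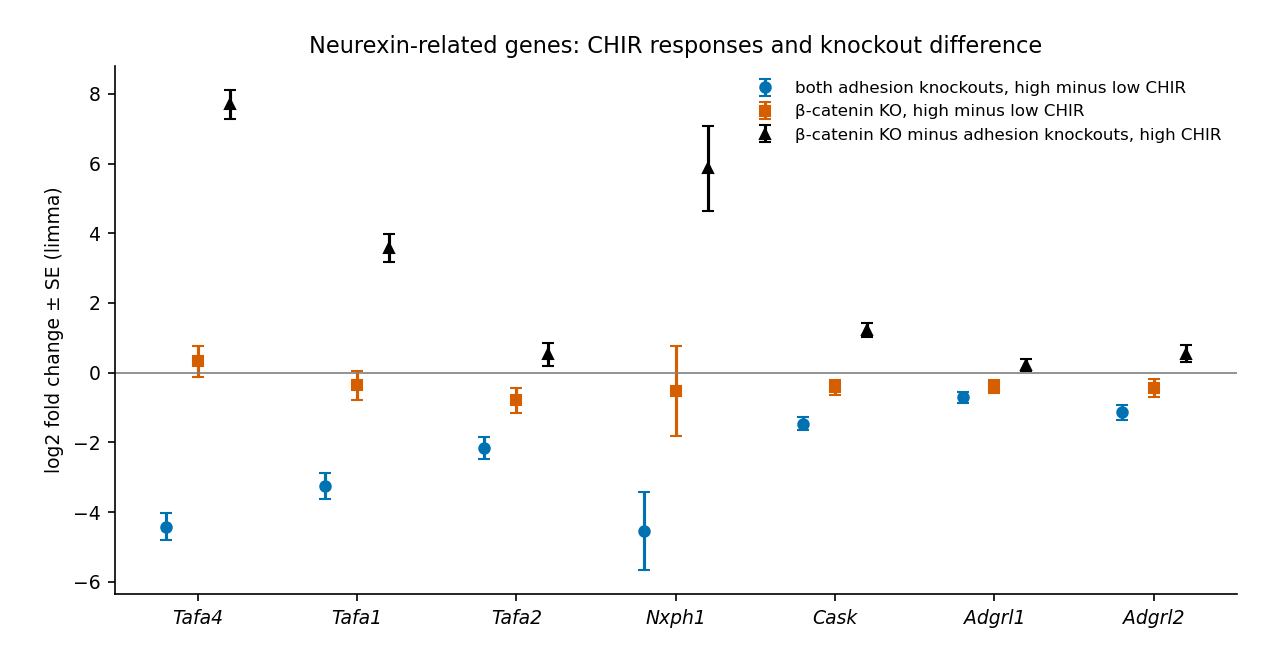
Log2 fold changes with standard errors (limma) of *Tafa4*, *Nxph1* and the 5 other genes of the list that were tested, for the CHIR response of the adhesion knockouts, the CHIR response of β-catenin KO, and the difference between these knockouts in high CHIR. The excess of β-catenin KO runs from 0.22 for *Adgrl1* to 7.70 for *Tafa4*.

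Other secreted peptides known from neurons did not share one pattern. Of 43 listed, 6 have an identifier and 5 passed the level for testing. *Npy*, which encodes neuropeptide Y, moved the opposite way, rising by 2.86 on the log2 scale in the adhesion knockouts (SE 0.28, adjusted p = 5.6e-06, limma), where 5.08% of genes were called higher. *Bdnf*, a neurotrophin gene, fell by 1.82 (SE 0.33, adjusted p = 0.0014) and was 1.84 higher in β-catenin KO than in the adhesion knockouts in high CHIR (SE 0.35, adjusted p = 0.0049). *Sst*, which encodes somatostatin, fell in β-catenin KO, from 100.0 to 257.9 in low CHIR to 6.9 to 10.0 in high CHIR (log2 difference -4.06, SE 0.56, adjusted p = 0.016, limma). It was lower in high CHIR in the adhesion knockouts too (-2.26, SE 0.49), where no p is given because *Sst* was picked partly on QCKO in high CHIR. The other 2 tested were called in none of the comparisons between or within the knockouts.

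Markers of neurons were looked at beside these values. Of 16 listed neuron markers 3 have an identifier (*Elavl4*, *Syt1* and *Gap43*), and of 6 glial and neural crest markers 0 have one. The summed level of the 3 neuron markers was 638 to 1047 in CTRL in low CHIR, 781 to 1157 in CTRL in high CHIR, 774 to 1191 in β-catenin KO in low CHIR and 860 to 1031 in β-catenin KO in high CHIR, and none of the 3 was at 0 in a whole group. The sum joins markers that moved in opposite directions. *Elavl4* was lower in high CHIR, like *Tafa4* and *Nxph1*, without overlap in CTRL (621 to 1041 in low, 462 to 589 in high CHIR), α-catenin KO (989 to 1062, 428 to 479) and QCKO (924 to 1187, 344 to 394), and overlapped in β-catenin KO (530 to 1124, 490 to 714). *Gap43* ran opposite to both genes between the CHIR conditions in CTRL, at 4.2 to 16.2 in low CHIR and 292.6 to 606.5 in high CHIR. In low CHIR it was higher in β-catenin KO, at 62.3 to 242.9, than in CTRL (at most 16.2) or the adhesion knockouts (at most 12.0), without overlap. *Syt1* was also higher in high CHIR in CTRL (0.893 to 2.12 in low, 22.4 to 34.5 in high CHIR), and in low CHIR its β-catenin KO libraries (at most 4.30) overlapped those of CTRL. Markers of other kidney cell types moved between the CHIR conditions too. Of 8 stromal markers only *Meis1* has an identifier, and it was at 2143 to 2961 in CTRL in low CHIR and 750 to 1090 in high CHIR, and in β-catenin KO at 1671 to 2121 and 537 to 921. Of 6 endothelial markers only *Tek* has one, at 0 to 3.25 and 89.7 to 177.1 in CTRL and at most 4.80 and 4.62 to 85.3 in β-catenin KO. The summed level of the 5 of 10 ureteric epithelium markers with an identifier was 586 to 824 in low and 1827 to 2113 in high CHIR in QCKO, 417 to 1147 and 1277 to 2297 in α-catenin KO, and overlapped in CTRL (314 to 1286, 875 to 1057) and β-catenin KO (499 to 945, 578 to 1135). The part of other cell types in the values was not tested.

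The genes most like *Tafa4* over the 20 libraries, by Pearson r of log2(normalized count + 1) among 16690 genes, were *Vmo1* (r = 0.973), *Olfml2a* (0.964), *Rab13* (0.948), *Ndnf* (0.946) and *Fgl2* (0.945). For *Nxph1* they were *Anxa2* (0.961), *Tcta* (0.955), *Ppp2r2b* (0.955), *Adh1* (0.954) and *Cbr2* (0.954). These are descriptions over libraries that share dates, knockouts and CHIR conditions, and the lists depended on the libraries: over the 14 libraries without β-catenin KO, 0 and 1 of the 5 genes recurred, and with Spearman's rho 3 and 1. *Vmo1*, which encodes a secreted protein, had group means of 24.1 and 1.35 in CTRL in low and high CHIR and of 61.9 and 50.8 in β-catenin KO. *Olfml2a*, which encodes a secreted olfactomedin-domain protein, had 132.0 and 26.8 in CTRL and 301.0 and 552.8 in β-catenin KO. *Tafa4* and *Nxph1* correlated with each other at r = 0.875, and with *Tafa1* at 0.913 and 0.921.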

How the data were processed

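mRNA was sequenced from 20 libraries in 8 groups, assigned from the sample labels. The authors deposited signal values, in which the reads of a gene are scaled by the size factor of each library, and whole reads were recovered from them (100% of values within 0.05 of a whole number, which tells little in the 2 libraries whose size factor was near 1). Per the labels, bcl2fastq, STAR, Subread, featureCounts, Salmon and DESeq2 were named with no roles, and the annotation is not given in the sources used here. The authors' comparison tables (fold changes and p-values) were used for symbols only, so 4316 of 31130 genes have a symbol.

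log2(normalized count + 1) was fitted in R 4.3.3 with limma 3.58.1 (trend, 1 mean per group, all 20 libraries, mean of at least 10, Benjamini-Hochberg). A gene counted as called when its adjusted p was below 0.05 and its log2 fold change exceeded 0.5 in size. Pooled ratios divide summed reads by summed size factors, with exact conditional 95% intervals. Alternatives included edgeR 4.0.16 and DESeq2 1.42.0 on recovered reads. The replicate numbers pair libraries by the date in the sample titles. Deviations of the low and high CHIR library of a date from their group means correlated across genes at r = 0.0474 (CTRL, date 2) to 0.721, and blocked values are given where they change a call. Whether replicates came from separate animals is not given in the labels, so p-values measure the spread between these libraries. The genes and lists were chosen with earlier results of these data known. The genes named are *Tafa4*, *Nxph1*, the targeted genes, *Six2*, *Wnt4* and *Lef1*, neurexin-related genes with an identifier, other listed peptides called in a tested comparison, and the 5 genes with a symbol most like each of *Tafa4* and *Nxph1*. The neuron, stromal and endothelial markers were named beside this rule.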

Additional observations from a re-analysis of the deposited data

Results flagged for a closer look

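The response of *Tafa4* to CHIR differed between β-catenin KO and QCKO. High minus low CHIR was 0.32 in β-catenin KO (n = 3 per condition) and -3.57 in QCKO (n = 2 per condition) on the log2 scale, and the interaction term was 3.89 (SE 0.70, adjusted p = 0.019, limma over all genes tested). High CHIR was lower in 2 of 2 QCKO date pairs and in 1 of 3 β-catenin KO date pairs. Over the alternatives run, adjusted p ranged from 0.0076 to 0.14, and 9 of 32 lost the call. No explanation was tested.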

How the results depend on the processing

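No call of *Tafa4* in QCKO between high and low CHIR, or between β-catenin KO and QCKO in high CHIR, was lost under any of the 32 alternatives. In the following, "adhesion response" is high against low CHIR in the adhesion knockouts, "high difference" and "low difference" are β-catenin KO against the adhesion knockouts in that CHIR condition, and "response difference" is the interaction term. For changes in other results below, the cause was not tested. *Tafa4* has 0 to 1 reads in each adhesion knockout library in high CHIR, so the size of its differences moved with the pseudocount. Pseudocount 0.25 gave -7.24 in α-catenin KO, -5.71 for the adhesion response, 9.02 for the high difference and 6.03 for the response difference, and pseudocount 5 gave -3.10, -2.67, 5.78 and 2.99, with -3.19 in CTRL and 5.38 for β-catenin KO against CTRL in high CHIR. edgeR gave -8.33, -6.38, 9.74 and 6.74 for the first 4, and DESeq2 -7.54, -6.07, 9.43 and 6.43. For *Nxph1*, β-catenin KO against CTRL in high CHIR was 8.97 by edgeR and 9.24 by DESeq2, and the CTRL response -8.28 by DESeq2.

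Calls changed as follows. The *Tafa4* response difference against QCKO was not called with a mean of at least 100 (3.89), pseudocount 5 (2.57), only the groups compared (3.89) or β-catenin KO of date 1 alone (4.14). The *Nxph1* difference between β-catenin KO and QCKO in high CHIR was not called with pseudocount 5 (4.85), only the groups compared (6.46) or edgeR (7.85). The *Tafa4* low difference was not called with only the groups compared (2.96). The *Nxph1* response in QCKO (-4.14) became called with only the groups compared, the replicate block or date 1 left out, and that in α-catenin KO with the replicate block (-4.95), β-catenin KO of date 1 alone (-4.95) or DESeq2 (-5.62). With date 1 left out, *Tafa4* in β-catenin KO against CTRL in high CHIR was 5.86. With β-catenin KO of date 1 alone, where 1 library per condition is assumed to vary like the other groups and date 1 is set against all dates, it was 7.33, the *Tafa4* high difference 8.48, and *Nxph1* against CTRL 9.33 in high and 3.62 in low CHIR (1.86 in low CHIR against CTRL of date 1).

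Leaving out 1 library at a time gave ranges of -5.38 to -3.71 for the *Nxph1* adhesion response, 4.60 to 6.94 for its high difference, 5.20 to 7.54 for its difference from QCKO, 2.67 to 3.27 for the *Tafa4* low difference and 3.31 to 4.47 for its response difference against QCKO. Directions reversed for the β-catenin KO response of *Tafa4* (-0.066 to 0.61, without high replicate 1) and *Nxph1* (-1.79 to 0.84, 0.84 without low replicate 1 and 0.55 without high replicate 2), and for *Nxph1* in β-catenin KO against CTRL in low CHIR (-0.47 to 1.78, -0.47 without low replicate 1). Each of these fits kept the other libraries of the date of the library left out.

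Counts of genes called also moved. With the date as a block they were 1150 in α-catenin KO (559 without), 1256 in QCKO (660), 40 in β-catenin KO (3), 1798 for the high difference (962), 157 for the low difference (24), 522 for the response difference (169), 935 for β-catenin KO against QCKO (520) and 252 for the response difference against QCKO (65). This pairing by date changed no other call of *Tafa4* or *Nxph1*. DESeq2 gave 874, 1034, 51, 1537, 361, 407, 977 and 252 in the same order, and edgeR 104 for the low difference, for which 1731 genes had an unadjusted p under the 0.05 threshold by limma (741 for the β-catenin KO response). With no filter the β-catenin KO response had 7 genes, and with a mean of at least 100 the adhesion response had 1179 (1782). With only the groups compared the counts were 1855 in QCKO, 0 in β-catenin KO, 0 for the low difference, 168 against QCKO and 37 for the response difference against QCKO. Date 1 left out gave 293 in α-catenin KO, 1131 in QCKO, 7 in β-catenin KO, 192 for the low difference and 137 for the response difference against QCKO, and β-catenin KO of date 1 alone gave 0, 334, 88, 944 and 43 for β-catenin KO, the low difference, the response difference, the comparison with QCKO and the response difference against QCKO. Single libraries left out gave 166 to 692 in α-catenin KO, 245 to 830 in QCKO, 1120 to 2069 for the adhesion response, 1 to 5 in β-catenin KO, 494 to 1258 for the high difference, 1 to 106 for the low difference, 75 to 248 for the response difference, 124 to 676 against QCKO and 15 to 129 for the response difference against QCKO. The settings with date 1 left out, with β-catenin KO of date 1 alone, and the comparisons of β-catenin KO with QCKO alone and the CTRL values were added after seeing the data. Depth limits the low values: 1 read was worth 0.784 to 1.29 normalized counts, so levels of 0 to 3 reads have no order.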
